A study of Homo sapiens with 4 samples.

Results

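The genes described here are 10 human genes: the enzymes that build and modify fatty acids (ACLY, ACACA, ACACB, FASN, ELOVL6, SCD, FADS1 and FADS2), the transcription factor MLXIPL, also known as ChREBP, and the phosphatidate phosphatase LPIN1, whose splicing was among the events studied. They were chosen by gene name from the 58302 genes listed in each library, and each name matched 1 gene. The measurements were made by mRNA-seq in HepG2, a line grown from a hepatocellular carcinoma, of wild-type (WT) genotype and kept in MEM medium with serum in every group. The 4 groups were DMSO for 24 h, melatonin at 1 mM for 24 h, DMSO for 48 h and melatonin at 1 mM for 48 h, with 1 library per group. Melatonin is a hormone of the pineal gland, and DMSO is the solvent that served as control. The question was how melatonin alters gene expression in liver cancer cells. No group was sequenced more than once, so a difference at a single time could not be tested, and a test over both times had to take time as a block. In bulk RNA of this kind, fewer cells that express a gene and less of its RNA per cell cannot be told apart.

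De novo lipogenesis makes fatty acids from citrate that leaves the mitochondria. ACLY splits citrate into acetyl-CoA, the acetyl-CoA carboxylases turn it into malonyl-CoA, FASN assembles palmitate, and elongases and desaturases lengthen it and add double bonds. In liver the genes of this route are driven mainly by SREBP1c, the product of SREBF1, in response to insulin, and by ChREBP in response to glucose, and many liver tumours keep the route active. LPIN1 stands further down, where phosphatidic acid is dephosphorylated to diacylglycerol, the precursor of triacylglycerol.

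The deposited values were FPKM, which divide the fragments on a gene by its length in kilobases and by a library size, so that levels of different genes can be compared per length. Read numbers could be worked back from FPKM and gene length, and 21616676 to 23086025 reads fell on genes per library. Mitochondrial genes took between 9.77% and 20.0% of them, with both 24 h libraries above both 48 h libraries. All 9 markers of liver cells, among them ALB and HNF4A, had an FPKM of at least 34.9 in every library, and their summed FPKM was 9380, 9381, 8848 and 7413 with DMSO at 24 h, melatonin at 24 h, DMSO at 48 h and melatonin at 48 h. Single markers differed more than the sum, and in both directions. At 48 h AFP had an FPKM of 1902 (DMSO) and 782 (melatonin), TF of 740 and 388, and TTR of 50.6 and 256. Of the 5 adipocyte markers ADIPOQ, LEP and LPL had 0 reads throughout, PLIN1 had at most 7 reads, and CIDEC lay between 0.935 and 2.66. No leukocyte or endothelial marker reached an FPKM of 1, and of the fibroblast markers COL3A1 and DCN had 0 reads while PDGFRB ranged from 0.774 to 4.33. Intervals given below are 95% intervals, exact Poisson for a level and exact binomial for a ratio of levels, and they cover counting error only.

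All 10 genes were detected in every library, and their levels spanned a wide range. SCD was the most abundant of them in each library and LPIN1 the least abundant at 24 h. In the library of DMSO at 24 h the order by FPKM was SCD, FASN, ACLY, MLXIPL, FADS1, ACACA, FADS2, ELOVL6, ACACB and LPIN1, and SCD stood 258-fold above LPIN1. With melatonin at 24 h the order was the same, and the counting intervals of ACACB and LPIN1 overlapped. At 48 h MLXIPL stood above ACLY in both libraries, and ACACB took the last place. Neighbours with overlapping intervals at 48 h were LPIN1 and ELOVL6 with DMSO, and FADS2 and LPIN1 with melatonin. The 10 genes together held 0.346% (DMSO) and 0.424% (melatonin) of the reads on genes at 24 h, then 0.219% and 0.265% at 48 h. SCD alone made up 48.8%, 53.6%, 36.6% and 45.5% of the reads of the 10 genes with DMSO at 24 h, melatonin at 24 h, DMSO at 48 h and melatonin at 48 h.

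**Figure D1:**
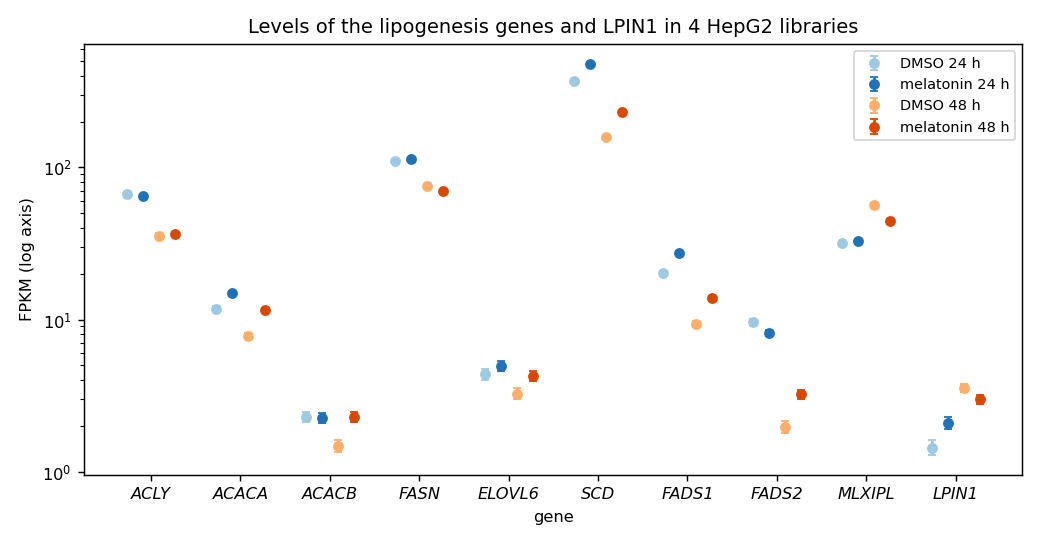
Level of each gene in FPKM (log axis) in the 4 libraries, 1 point per library, with 95% exact Poisson intervals of the recovered reads as bars. SCD lies at 158 to 477 in all libraries, the 8 biosynthetic enzymes are lower with DMSO at 48 h than with DMSO at 24 h, and MLXIPL and LPIN1 are higher.

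None of the 10 genes differed 2-fold between melatonin and DMSO at either time. SCD, FADS1 and ACACA were higher with melatonin at both times by factors between 1.28 and 1.49, ACLY stayed within counting error at both times, and FASN moved by less than 10% of its level. FADS2 was lower with melatonin at 24 h and higher at 48 h, and LPIN1 the other way round. Differences were taken as log2((melatonin FPKM + 1)/(DMSO FPKM + 1)), on which weakly expressed genes appear to change less than they do. A gene counted as changed at a difference of at least 1 or at most -1, provided that 1 of the compared libraries had an FPKM of 1 or more. All 10 genes passed that filter. Over all genes tested the share that changed was 4.35% of 13582 at 24 h and 5.72% of 13805 at 48 h, against 0 of 10 here at each time. The median difference of the 10 genes was 0.10 at 24 h, beside 0.02 over all genes tested, and 0.36 at 48 h, beside -0.02. An added limma fit of all 4 libraries, with treatment and with time as a block, averaged the melatonin difference over both times on the log2(FPKM + 1) scale and had 1 residual degree of freedom. It called 0 of the 10 genes and 0% of the 14612 genes tested at an adjusted p under 0.05. Before adjustment 3 of the 10 genes had a p under 0.05, against 17.1% of all genes tested. These were FADS1, with a mean difference of 0.47 (0.15 to 0.79) and an adjusted p of 0.184, SCD, with 0.46 (0.11 to 0.81) and 0.218, and ACACA, with 0.43 (0.10 to 0.75) and 0.220. A difference between the times in the effect of melatonin enters the residual of this fit. At a 1.5-fold threshold on the log2(FPKM + 1) scale the count was 0 of 10 at both times as well, where 11.6% and 18.7% of all genes tested passed. By the plain ratio of FPKM, FADS2 passed 1.5-fold at 48 h, at 1.64, and so did ACACB.

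The supply of building blocks came first. ACLY (chromosome 17, 41866908 to 41930542, minus strand, all coordinates on hg38) makes the cytosolic acetyl-CoA from which fatty acids are built. Its FPKM was 66.9 (DMSO) and 65.3 (melatonin) at 24 h, and 35.7 and 36.5 at 48 h. The ratio of melatonin to DMSO was 0.975 (0.942 to 1.01) at 24 h and 1.02 (0.980 to 1.07) at 48 h, so both intervals included 1.

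The acetyl-CoA carboxylases gave different pictures. ACACA (chromosome 17, 37084988 to 37406818, minus strand) encodes the cytosolic carboxylase, the committed step of fatty acid synthesis. Its FPKM was 11.8 (DMSO) and 15.0 (melatonin) at 24 h, and 7.78 and 11.6 at 48 h. Melatonin stood above DMSO at both times, by 1.28-fold (1.22 to 1.34) and by 1.49-fold (1.41 to 1.57). ACACB (chromosome 12, 109116595 to 109268226, plus strand) encodes the carboxylase at the mitochondrial surface, whose malonyl-CoA restrains fatty acid oxidation. Its FPKM was 2.28 (DMSO) and 2.25 (melatonin) at 24 h, and 1.47 and 2.29 at 48 h. At 24 h the ratio was 0.984 (0.880 to 1.10), and at 48 h it was 1.55 (1.38 to 1.75), with DMSO at 48 h as the one low library of the 4.

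FASN (chromosome 17, 82078333 to 82098332, minus strand) encodes the multifunctional enzyme that assembles palmitate. Its FPKM was 111 (DMSO) and 113 (melatonin) at 24 h, and 75.0 and 69.7 at 48 h. With 14499 to 21493 reads per library its intervals were narrow, and the ratio was 1.02 (1.00 to 1.04) at 24 h and 0.930 (0.909 to 0.952) at 48 h. ELOVL6 (chromosome 4, 110045846 to 110199199, minus strand) lengthens palmitate to stearate. It had an FPKM of 4.36 (DMSO) and 4.95 (melatonin) at 24 h, and of 3.26 and 4.28 at 48 h. The ratio was 1.14 (1.02 to 1.27) at 24 h and 1.32 (1.17 to 1.48) at 48 h, and the intervals of these ratios overlapped.

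SCD (chromosome 10, 100347124 to 100364834, plus strand) encodes stearoyl-CoA desaturase, which places the first double bond and makes oleate and palmitoleate. Its FPKM was 371 (DMSO) and 477 (melatonin) at 24 h, and 158 and 232 at 48 h. Both melatonin libraries were above the DMSO library of their own time, by 1.29-fold (1.27 to 1.30) and 1.47-fold (1.44 to 1.498), while the melatonin library of 48 h was below the DMSO library of 24 h. On the log2 scale the difference at 48 h was 0.55, which stood at percentile 90.5 of the genes tested.

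FADS1 and FADS2 encode the delta-5 and delta-6 desaturases, which act on the polyunsaturated fatty acids taken up with the diet or the medium. FADS1 (chromosome 11, 61799625 to 61829318, minus strand) had an FPKM of 20.3 (DMSO) and 27.5 (melatonin) at 24 h, and of 9.32 and 13.8 at 48 h. It was higher with melatonin at both times, by 1.36-fold (1.30 to 1.41) and 1.48-fold (1.40 to 1.57). FADS2 (chromosome 11, 61792980 to 61867354, plus strand) had an FPKM of 9.57 (DMSO) and 8.12 (melatonin) at 24 h, and of 1.96 and 3.21 at 48 h. Here the ratio lay below 1 at 24 h, at 0.848 (0.795 to 0.904), and above 1 at 48 h, at 1.64 (1.46 to 1.85). The annotated exons of FADS1 and FADS2 share 490 bases on opposite strands. Of the exonic bases, 5.57% of those of FADS1 overlap other genes. For FADS2 the share is 5.11%, with FEN1 among the overlapping genes as well as FADS1. The counting is not stated to have used the strand, so reads in the shared bases may have gone to any of these genes.

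MLXIPL (chromosome 7, 73593194 to 73624543, minus strand) encodes ChREBP, a glucose-responsive factor that drives lipogenic and glycolytic genes. Its FPKM was 31.8 (DMSO) and 32.8 (melatonin) at 24 h, and 56.6 and 44.5 at 48 h. The ratio was 1.03 (0.979 to 1.08) at 24 h and 0.788 (0.758 to 0.818) at 48 h. Both 48 h libraries were above both 24 h libraries, the reverse of the enzymes SCD, FASN, ACLY, FADS1 and FADS2. ACACA and ELOVL6 were also lower in both 48 h libraries than in both 24 h libraries. For each of these, the counting intervals of melatonin at 48 h and DMSO at 24 h overlapped.

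LPIN1 (chromosome 2, 11677595 to 11827409, plus strand) encodes lipin 1, which dephosphorylates phosphatidic acid and also acts as a coregulator of transcription. Its FPKM was 1.44 (1.28 to 1.61, 313 reads) with DMSO and 2.08 (1.90 to 2.27, 501 reads) with melatonin at 24 h. At 48 h it was 3.54 (3.32 to 3.78, 922 reads) with DMSO and 2.99 (2.78 to 3.20, 787 reads) with melatonin. The level with melatonin was thus 1.45-fold (1.26 to 1.67) that of DMSO at 24 h and 0.843-fold (0.766 to 0.928) at 48 h. The other lipins, which carry the same enzymatic activity, were more abundant. LPIN2 had an FPKM of 13.1, 13.3, 17.4 and 17.6 and LPIN3 of 7.75, 7.76, 8.37 and 10.5 with DMSO at 24 h, melatonin at 24 h, DMSO at 48 h and melatonin at 48 h. The ratio of melatonin to DMSO for LPIN2 was 1.01 (0.949 to 1.09) at 24 h and 1.01 (0.959 to 1.07) at 48 h. For LPIN3 it was 1.00 (0.899 to 1.11) and 1.26 (1.15 to 1.38). LPIN1 therefore stood at 0.109 of the LPIN2 level with DMSO at 24 h and at 0.204 of it with DMSO at 48 h.

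**Figure D2:**
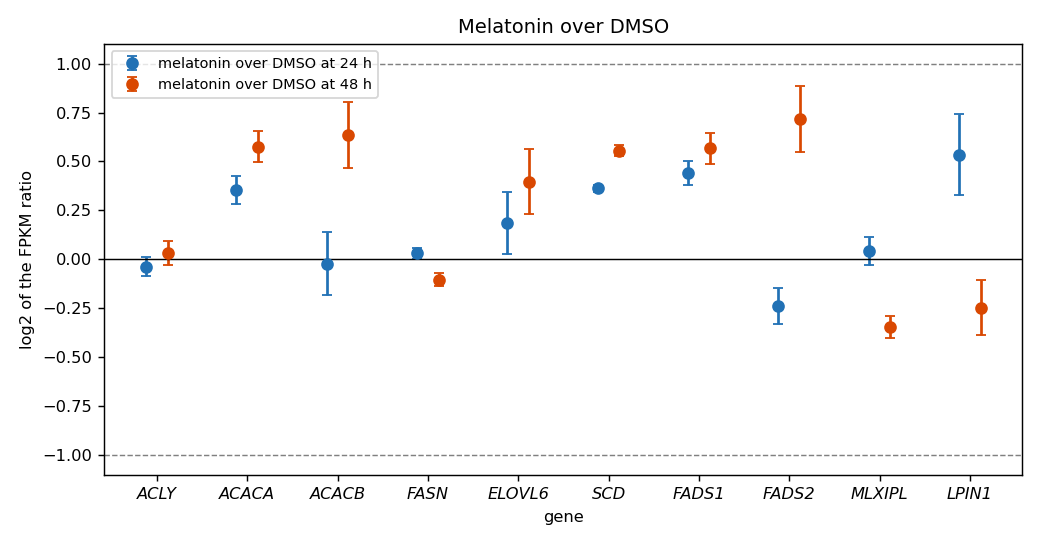
Log2 of the ratio of melatonin FPKM to DMSO FPKM for each gene at 24 h (blue) and 48 h (orange), 1 library per group, with 95% exact binomial counting intervals as bars and dashed lines at 2-fold. No gene reaches a dashed line, SCD, FADS1, ACACA and ELOVL6 lie above 0 at both times, and FADS2 and LPIN1 lie on opposite sides of 0 at the 2 times.

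By counting error alone the interval of the ratio lay above 1 for 6 of the 10 genes, below 1 for 1 and across 1 for 3 at 24 h. At 48 h the numbers were 6, 3 and 1. Among all 8400 genes with at least 300 reads in either library at 24 h the interval lay above 1 for 37.6% and below 1 for 25.0%, and among 8794 genes at 48 h for 34.3% and 40.0%. At this depth most well-read genes thus differed beyond counting error in both comparisons, and such an interval does not speak to the spread between cultures. The ratio at 48 h divided by the ratio at 24 h was 0.582 (0.491 to 0.690) for LPIN1, 0.764 (0.718 to 0.814) for MLXIPL and 0.910 (0.883 to 0.937) for FASN. It was 1.94 (1.70 to 2.21) for FADS2, 1.58 (1.35 to 1.85) for ACACB, 1.17 (1.08 to 1.25) for ACACA, 1.14 (1.12 to 1.17) for SCD and 1.09 (1.02 to 1.17) for FADS1. For ACLY and ELOVL6 the interval included 1.

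LPIN1 is one of the genes in which the inclusion of an exon was studied, and exon 6 was the exon named, on a transcript that was not stated. In GENCODE 44 the reference (MANE) transcript of LPIN1 has 21 exons, and its exon 6 lies at chr2:11776086-11776193 on the plus strand. The exon is 108 bases long and wholly coding, and since 108 bases make 36 codons, including or skipping it keeps the reading frame. Of the 20 annotated transcripts 5 contain it, where it counts as exon 6 or 7, and 2 skip it. The sequence is shown because it is the part of the gene whose use was studied. The exon is in capitals, with 30 intron bases on each side in lower case, in hg38 at chr2:11776056-11776223.
LPIN1 exon 6: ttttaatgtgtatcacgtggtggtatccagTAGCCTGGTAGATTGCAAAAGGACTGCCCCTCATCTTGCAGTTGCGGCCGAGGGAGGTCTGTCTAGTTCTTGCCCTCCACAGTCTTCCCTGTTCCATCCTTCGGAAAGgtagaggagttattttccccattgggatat
The intron before the exon ends in ag and the one after it begins with gt, the usual splice signals. The deposited values are gene totals, so a level of LPIN1 as given above sums transcripts with and without the exon, and its inclusion was not analysed here.

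The profile of LPIN1 over the 4 libraries, lowest with DMSO at 24 h and highest with DMSO at 48 h, was compared with that of 11247 genes that had an FPKM of at least 1 in all libraries. The 3 nearest by Euclidean distance of the centred log2(FPKM + 1) values over the 4 libraries were SELENOS, EIF4BP6 and SGPP1, at distances of 0.038, 0.063 and 0.072. SELENOS, a selenoprotein of the endoplasmic reticulum, had an FPKM of 7.78, 10.2, 15.7 and 13.9 with DMSO at 24 h, melatonin at 24 h, DMSO at 48 h and melatonin at 48 h. SGPP1, a sphingosine-1-phosphate phosphatase, had 7.89, 10.1, 16.1 and 13.0 in the same order. The pseudocount flattens the profile of LPIN1, whose FPKM is low, more than those of SELENOS and SGPP1. Their nearness therefore holds on the log2(FPKM + 1) scale and not for plain ratios. EIF4BP6 is annotated as a processed pseudogene, and its reads may belong to another copy.

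The libraries of 48 h and 24 h were compared with the treatment held the same. Between DMSO at 24 h and DMSO at 48 h, FADS2, SCD and FADS1 fell past 2-fold, and all 8 enzymes were lower at 48 h. MLXIPL and LPIN1 were higher at 48 h. The number lower by 2-fold on the log2(FPKM + 1) scale was 3 of 10, against 4.24% of the 13854 genes tested, and 0 of 10 were higher by 2-fold, against 3.5%. Counting either direction, 7.74% of all genes tested changed. At 1.5-fold the count was 6 of 10, against 23.8%, with ACLY, MLXIPL and LPIN1 added. The median difference of the 10 genes was -0.55, beside 0.00 over all genes tested. The melatonin comparison at 48 h and this one share the DMSO library of 48 h, so their values are not independent.

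FADS2 had the largest fall of the 10 genes, to 0.204 (0.184 to 0.226) of its level with DMSO at 24 h, a log2 difference of -1.84 that only 0.433% of the genes tested lay below. SCD stood at 0.425 (0.417 to 0.432), a log2 difference of -1.23. FADS1 stood at 0.460 (0.436 to 0.485), with a log2 difference of -1.04 just past the threshold, and did not pass with the sum of reads as library size, at -0.89. These are the desaturases among the 10 genes. The enzymes that supply and assemble the chain were lower by smaller factors, with ratios of 0.533 (0.512 to 0.554) for ACLY, 0.644 (0.570 to 0.728) for ACACB, 0.661 (0.625 to 0.699) for ACACA and 0.677 (0.663 to 0.692) for FASN. ELOVL6 had the smallest difference of the enzymes, with a ratio of 0.747 (0.662 to 0.842). This split between desaturases and other enzymes is of the 10 genes only. Between the same libraries the citrate carrier SLC25A1 fell from an FPKM of 61.3 to 23.5. FADS3, a further gene of the desaturase family named after its values were seen, rose from 3.81 to 6.97. MLXIPL was 1.78-fold (1.70 to 1.86) and LPIN1 2.47-fold (2.17 to 2.81) higher with DMSO at 48 h than at 24 h. On the log2(FPKM + 1) scale the difference of LPIN1 was 0.90, below the threshold, since its FPKM was low.

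With melatonin at both times the same desaturases stood low at 48 h. SCD was at 0.486 (0.479 to 0.493) and FADS2 at 0.396 (0.364 to 0.431) of the level at 24 h, and both passed the 2-fold threshold at log2 differences of -1.04 and -1.11. Neither passed with the sum of reads, at -0.91 and -0.99, or with TPM, at -0.76 and -0.98, and SCD did not pass with the sum of reads without mitochondrial genes, at -0.99. FADS1 was at 0.502 (0.481 to 0.525) and did not pass, at -0.94. The count was 2 of 10 lower, against 1.71% of the 13489 genes tested, and 4.15% of these changed in either direction. At 1.5-fold it was 5 of 10, against 12.8%, with FADS1, ACLY and FASN added. ACLY stood at 0.559 (0.538 to 0.581), FASN at 0.616 (0.603 to 0.629), ACACA at 0.771 (0.736 to 0.807) and ELOVL6 at 0.865 (0.778 to 0.961). ACACB, at 1.02 (0.914 to 1.13), was the one enzyme whose interval included 1. MLXIPL was 1.36-fold (1.30 to 1.42) and LPIN1 1.43-fold (1.28 to 1.61) higher at 48 h. The median difference was -0.52, beside -0.04 over all genes tested.

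**Figure D3:**
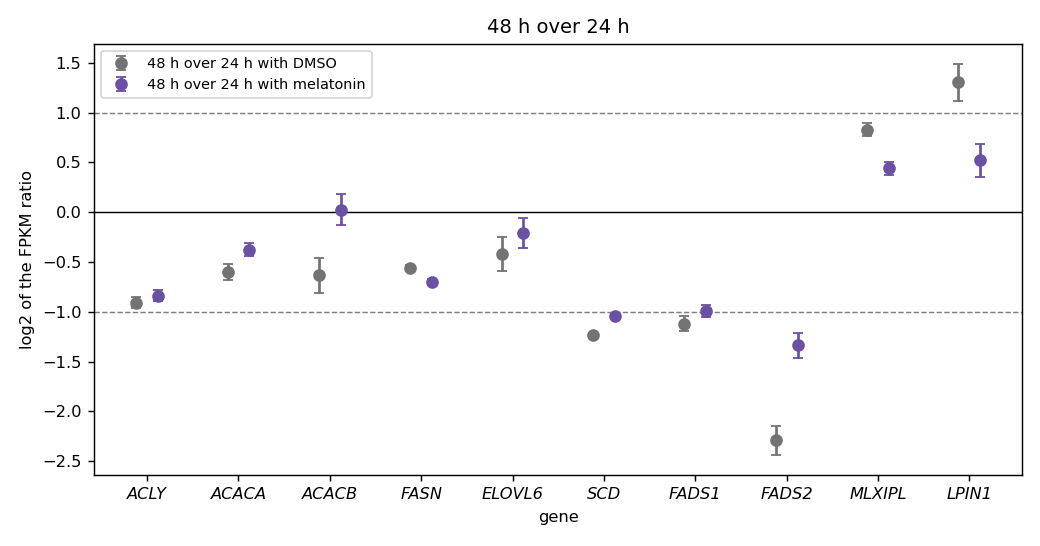
Log2 of the ratio of the FPKM at 48 h to that at 24 h for each gene, with DMSO at both times (grey) and with melatonin at both times (purple), 1 library per group, with 95% exact binomial counting intervals as bars and dashed lines at 2-fold. SCD, FADS1 and FADS2 are the lowest with DMSO, and MLXIPL and LPIN1 lie above 0 in both comparisons, LPIN1 past 2-fold with DMSO on this plain ratio.

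The time comparisons depended on how the libraries were scaled. Both 48 h libraries held a smaller share of mitochondrial reads and a smaller sum of FPKM than both 24 h libraries. Rescaling to TPM, in which every library has the same sum, moved the median of all genes by 0.46 for DMSO and by 0.25 for melatonin, against 0.16 and -0.05 for melatonin over DMSO at 24 h and 48 h. With TPM the DMSO comparison gave 1 of the 10 genes lower and 2 higher by 2-fold, in place of 3 and 0. No share of all genes called with TPM is given here. Since the median of all genes moved up, these counts cannot be set against the shares found with the deposited FPKM. SCD then had a log2 difference of -0.73, FADS1 of -0.60, FADS2 of -1.63, MLXIPL of 1.32 and LPIN1 of 1.52. ELOVL6 changed sign, to 0.08. Relative to the shift of all genes the values were -1.19 for SCD, -1.06 for FADS1, -2.09 for FADS2, 0.86 for MLXIPL and 1.06 for LPIN1. SCD, FADS1 and FADS2 were lower, and MLXIPL and LPIN1 higher, at 48 h under each of the 4 scalings. The part of the mitochondrial share in these differences was not tested.

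**Figure D4:**
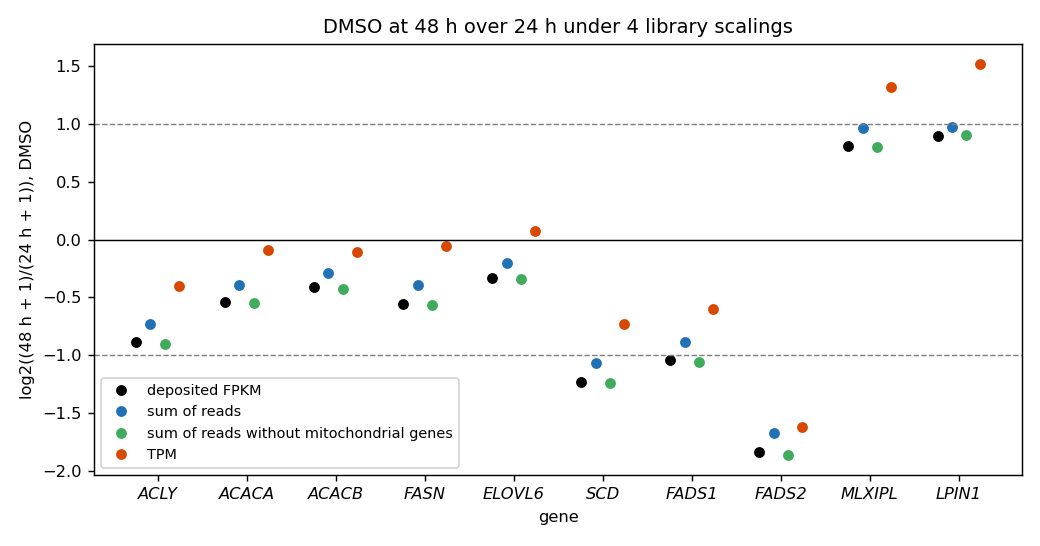
Log2 difference between DMSO at 48 h and DMSO at 24 h for each gene under 4 library scalings, namely the deposited FPKM, the sum of recovered reads, that sum without mitochondrial genes, and TPM, with dashed lines at 2-fold. TPM lifts all 10 genes, SCD from -1.23 to -0.73 and LPIN1 from 0.90 to 1.52, and FADS2 is the lowest under each scaling.

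Ratios between the 10 genes within a library do not depend on the library scaling. SCD stood at 3.35 and 4.21 times the level of FASN with DMSO and melatonin at 24 h, and at 2.102 and 3.32 times at 48 h, so the ratio was 1.26-fold (1.23 to 1.29) and 1.58-fold (1.53 to 1.63) higher with melatonin. ACACA relative to FASN was 1.25-fold (1.19 to 1.32) and 1.602-fold (1.51 to 1.70) higher with melatonin. SCD and ACACA thus stood higher relative to FASN in both melatonin libraries than in the DMSO library of the same time. FADS1 stood at 2.12 times FADS2 with DMSO at 24 h and at 3.39, 4.76 and 4.30 times with melatonin at 24 h, DMSO at 48 h and melatonin at 48 h. ACACA stood at 5.07 to 6.69 times ACACB in the 4 libraries. SCD over MLXIPL was 11.7 and 14.5 at 24 h and 2.79 and 5.20 at 48 h, with DMSO first in each pair.

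The sequence in front of the transcription start was looked up for the 10 genes in RefSeq (GRCh38.p14), and 9 of them matched, with 16 start sites in all. FASN was not matched. The 250 bases before each start were searched on both strands for the letters of 4 motifs. TCACNCCAC, a form of the element bound by SREBP, was in 0 of the 16 windows and in 0.883% of the 35116 windows of all genes. Other forms of the element were not searched, so this count does not show that the genes lack it. CACGTG, an E-box, was in 0 of 16 and in 6.34% of all. CCAAT, the box bound by NF-Y, was in 6 of 16 windows, those of ACACA, ACACB, ACLY and SCD, and in 32.0% of all. GGGCGG, the GC box bound by Sp1 and its relatives, was in 12 of 16 windows and at least 1 window of each of the 9 genes, and in 42.6% of all windows. That share is of windows and not of genes, and a gene with several start sites gives several windows. The windows of ACLY overlapped, so boxes in their shared bases counted in each, and the 16 windows are not independent. A match of letters is a description and not a binding site. The stretches below are shown because SCD and FADS1 were called lower, and MLXIPL and LPIN1 were higher, at 48 h with DMSO. Each is read in the direction of the gene, from the first to the last base named, and capitals mark CCAAT in SCD and GGGCGG or its reverse complement in the others.
SCD, plus strand, chr10:100346983-100347082, 250 to 151 bases before the start: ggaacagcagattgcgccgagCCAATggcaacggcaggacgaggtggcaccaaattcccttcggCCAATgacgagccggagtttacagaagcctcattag
FADS1, minus strand, chr11:61817198-61817253, 250 to 195 bases before the start: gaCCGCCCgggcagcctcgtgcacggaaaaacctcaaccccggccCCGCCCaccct
MLXIPL, minus strand, chr7:73624544-73624643, 121 to 22 bases before the start: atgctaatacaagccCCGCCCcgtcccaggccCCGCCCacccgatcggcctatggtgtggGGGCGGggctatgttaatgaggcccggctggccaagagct
LPIN1, plus strand, chr2:11746488-11746587, 144 to 45 bases before the start of the MANE transcript: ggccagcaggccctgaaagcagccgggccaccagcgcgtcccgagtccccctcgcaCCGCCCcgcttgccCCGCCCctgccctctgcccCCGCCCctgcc
The CCAAT boxes of SCD began 229 and 186 bases before its start. GC boxes thus stood in front of genes that were lower and of genes that were higher at 48 h.

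Around the 10 genes, 108 further genes of fatty acid and glycerolipid metabolism were read in 10 lists. At 24 h 87 of them were tested, and PLIN2 was lower by 2-fold with melatonin. At 48 h 85 were tested, BRCA1 was higher and ACSL5 and PLIN2 were lower. These counts, 1 of 87 and 3 of 85, stand beside 4.35% and 5.72% of all genes tested. The median difference of the genes tested was 0.03 over 87 genes at 24 h and -0.03 over 85 at 48 h.

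Of 8 genes of citrate export and acetyl-CoA supply, 6 had a positive difference at 24 h and 7 at 48 h, with medians of 0.15 and 0.29, and none passed 2-fold. SLC25A1, the mitochondrial citrate carrier, had an FPKM of 61.3 (DMSO) and 77.9 (melatonin) at 24 h, and of 23.5 and 39.2 at 48 h. Its ratio was 1.27 (1.20 to 1.34) and 1.67 (1.54 to 1.80). ACSS2, which makes acetyl-CoA from acetate, had ratios of 1.47 (1.35 to 1.59) and 1.49 (1.36 to 1.64). The 5 genes tested of NADPH supply had medians of 0.18 and 0.22, and none passed 2-fold. ME1, the cytosolic malic enzyme, had 0 or 1 read in each library, so a difference was not detectable.

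SREBF1, which encodes SREBP1, was lower with melatonin at both times, with an FPKM of 15.8 and 11.6 at 24 h and of 14.3 and 8.68 at 48 h, DMSO first. The ratio was 0.733 (0.689 to 0.779) and 0.606 (0.568 to 0.646), short of 2-fold. SCD relative to SREBF1 was thus 1.75-fold (1.65 to 1.87) and 2.43-fold (2.27 to 2.59) higher with melatonin. INSIG1, which holds the SREBPs in the endoplasmic reticulum, had 0 or 1 read in each library. Of 10 genes tested in the list of SREBP1 and its control, 6 had a negative difference at 24 h and 8 at 48 h, with medians of -0.06 and -0.16, and none passed 2-fold. The 5 genes tested of the ChREBP partner and targets had medians of -0.25 and -0.21, and none passed 2-fold on the log2(FPKM + 1) scale. MLX, the partner with which ChREBP binds DNA, had an FPKM of 9.35 and 10.5 at 24 h and of 12.6 and 9.95 at 48 h. TXNIP, a ChREBP target, stayed below an FPKM of 1 with 39 to 56 reads per library. PKLR, liver pyruvate kinase and a classical ChREBP target, had an FPKM of 6.70 and 3.05 at 24 h and of 1.31 and 0.998 at 48 h. Its level with melatonin was 0.455 (0.375 to 0.552) of that with DMSO at 24 h. Its log2 difference of -0.93 missed the threshold with the pseudocount of 1 and passed it with one of 0.1, at -1.11. At 48 h the interval of the ratio, 0.533 to 1.09, included 1. PKLR thus stood lower at 48 h than at 24 h with DMSO, at 0.195 (0.150 to 0.251), while MLXIPL stood higher.

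Of the cofactors and kinases, 0 of 10 passed 2-fold at 24 h and BRCA1 was the 1 of 9 that did at 48 h, with medians of 0.14 and -0.01. BRCA1, a DNA repair protein that also binds the phosphorylated, inactive form of acetyl-CoA carboxylase, had an FPKM of 6.22 and 8.09 at 24 h and of 1.70 and 4.52 at 48 h, a ratio of 2.65 (2.34 to 3.02) at 48 h. MID1IP1, which promotes the polymerisation of acetyl-CoA carboxylase, was 1.46-fold (1.30 to 1.63) higher at 24 h and had a ratio of 0.992 (0.904 to 1.09) at 48 h. Its relative THRSP had 1 to 6 reads per library. Of 10 other desaturation and elongation enzymes tested, 5 had a positive and 5 a negative difference at each time and none passed 2-fold. The 5 genes tested of mitochondrial fatty acid synthesis, a separate route with its own enzymes, did not pass 2-fold either, with medians of 0.12 and -0.05.

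Downstream of fatty acid synthesis PLIN2 was lower by 2-fold with melatonin at both times and ACSL5 at 48 h. The acyl-CoA activation list had medians of 0.04 over 8 genes at 24 h and 0.28 over 7 at 48 h. ACSL5, an acyl-CoA synthetase, had an FPKM of 30.2 (DMSO) and 22.7 (melatonin) at 24 h, and fell from 39.3 to 19.0 at 48 h, a ratio of 0.483 (0.456 to 0.511). Its log2 difference of -1.01 at 48 h was just past the threshold. It did not pass with the sum of reads, at -0.98, or with that sum without mitochondrial genes, at -0.95. With median centring, at -0.99, it did not pass either. GPAM, which starts glycerolipid synthesis, had ratios of 0.678 (0.639 to 0.719) and 0.607 (0.574 to 0.641). DGAT2, which completes triacylglycerol, had ratios of 0.893 (0.825 to 0.967) and 0.692 (0.632 to 0.759). None of the 18 glycerolipid genes tested passed 2-fold on the log2(FPKM + 1) scale at either time, with medians of -0.07 and -0.06, beside 0.02 and -0.02 over all genes. MOGAT1, a monoacylglycerol acyltransferase named after its values were seen, rested at 48 h on 10 reads (DMSO) and 42 reads (melatonin), a ratio of 4.15 (2.05 to 9.27), and its difference of 0.97 on that scale missed the threshold. The 8 lipid droplet and lipolysis genes tested had medians of 0.03 and -0.38, and PLIN2 was the 1 that passed 2-fold at each time. PLIN2, the main coat protein of lipid droplets in liver cells, fell with melatonin at 24 h from 54.5 to 22.7 FPKM, a ratio of 0.417 (0.397 to 0.438). At 48 h it fell from 50.1 to 19.0 FPKM, a ratio of 0.379 (0.360 to 0.398). PNPLA3, a lipid droplet acylhydrolase, had an FPKM of 7.79 and 9.17 at 24 h and of 2.14 and 5.17 at 48 h. Its ratio at 48 h was 2.41 (1.99 to 2.93), and on the log2(FPKM + 1) scale the difference of 0.97 missed the threshold.

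**Figure D5:**
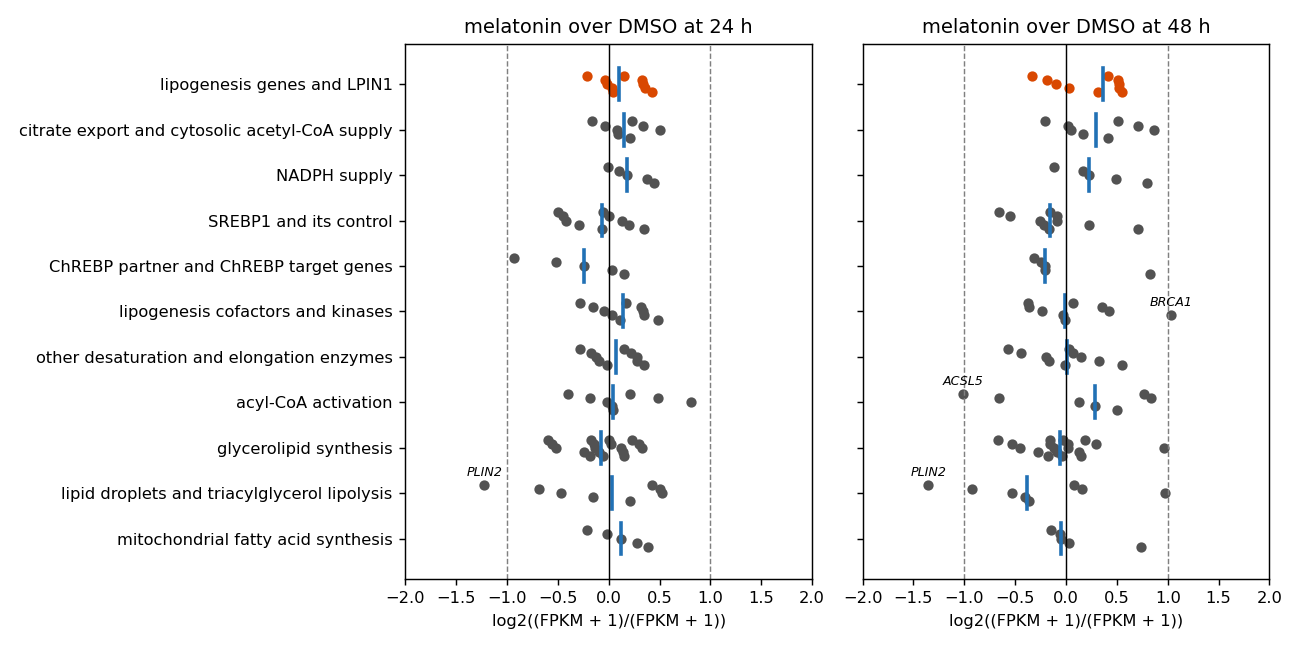
Log2 differences between melatonin and DMSO at 24 h (left) and 48 h (right) on the log2(FPKM + 1) scale, 1 point per gene tested, for the lipogenesis genes with LPIN1 (orange) and the 10 lists of pathway genes (grey), with blue bars at the medians and dashed lines at 2-fold. All orange points lie between the dashed lines, with medians of 0.10 and 0.36, and PLIN2, BRCA1 and ACSL5 are the pathway genes outside them.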

How the data were processed

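HepG2 mRNA was sequenced as 1 library for each of 4 groups. The authors deposited FPKM per Ensembl gene and the length of each gene. The methods name MapSplice on hg38 and Cufflinks, and the submitters' processing notes list Bowtie2 2.0.6, TopHat2 2.0.9, Cufflinks 2.1.1 and Cuffdiff 2.1.1. How the library size was set and whether counting used the strand is not given in the sources used here.

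In each library 100% of the FPKM, multiplied by gene length, were whole multiples of a single step (within 0.01 reads), and the multiple was taken as the reads of the gene. The implied library sizes were 18357838 to 22205042. Differences were log2((FPKM + 1)/(FPKM + 1)) over the whole table, for genes that reached an FPKM of 1 in at least 1 of the compared libraries, and a gene was called at 1 or -1. Intervals were exact Poisson (levels) and exact binomial (ratios) at 95%. PCR duplicates could not be told apart, so intervals cover counting error only.

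The genes and lists were chosen with earlier results of these data known. Of 116 names in the lists 108 matched, and 1 further gene is not reported here. Named were the 10 genes, each list gene called with melatonin at 24 h or 48 h on at least 50 reads, 15 genes named whatever their values, and the 3 genes nearest to LPIN1. Chosen after seeing the data was a limma 3.58.1 fit (R 4.3.3) of treatment with time as a block, Benjamini-Hochberg adjusted. Other alternatives were a pseudocount of 0.1, no filter, a minimum FPKM of 5, a 1.5-fold threshold, median centring, TPM, and library sizes from the recovered reads with and without mitochondrial genes. Gene coordinates are those of the files, and 4 of the 10 genes have the same start and end in GENCODE 44. The scripts (Python 3.11, numpy 2.4.6, pandas 2.3.3, scipy 1.17.1, matplotlib 3.10.9) were tested on simulated data.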

Additional observations from a re-analysis of the deposited data

Results flagged for a closer look

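For 4 genes the counting interval of the ratio of melatonin to DMSO lay on opposite sides of 1 at 24 h and 48 h. For the 4 genes the ratio was 1.02 and 0.930 for FASN, 0.848 and 1.64 for FADS2, and 1.45 and 0.843 for LPIN1. For MLX, the binding partner of ChREBP, it was 1.12 and 0.790. With 1 library per group and time the difference between the times was not tested against a spread between cultures. The sign of each difference was kept at both times under all alternatives run for the 4 genes. For LPIN1 the log2 difference lay between 0.32 and 0.56 at 24 h and between -0.27 and -0.14 at 48 h. For FADS2 it lay between -0.24 and -0.06, then between 0.51 and 0.69. For FASN it came as near to 0 as 0.0086 at 24 h. Of the annotated exonic bases of MLX 18.2% overlap PSMC3IP, and those of LPIN1 overlap another gene by 0.970%.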

How the results depend on the processing

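The labels give no replicate numbers, and the pairing tried, chosen after seeing the data, was time as a block in a limma fit over both times, which called 0 of the 10 genes. With 1 library per group no library was left out. Over the 4 comparisons the 10 genes kept the sign of their difference in 260 of 267 values under the alternatives and their call in 256. These counts overstate how firm the signs are. The changes of filter left each value as it was, and a change of pseudocount cannot alter a sign. Only the scalings and median centring could do so. The signs that changed were those of ACLY and ACACB at 24 h, ACLY at 48 h and ELOVL6 between times, all with TPM, and of ACLY and ACACB at 24 h also with the sum of reads. The count of called genes between times with DMSO was 6 at 1.5-fold, 2 with the sum of reads, where FADS1 was lost, and 4 with a pseudocount of 0.1, against 3. With melatonin at both times it was 5 at 1.5-fold, 0 with the sum of reads, 1 with that sum without mitochondrial genes and 0 with TPM, against 2. LPIN1 passed 2-fold between the DMSO libraries with a pseudocount of 0.1 (1.25) and with TPM (1.52). The median over the 10 genes for DMSO between times was -0.39 with the sum of reads, -0.89 at a minimum FPKM of 5 and -0.10 with TPM. For melatonin between times it was -0.39, -0.82 and -0.26. For melatonin over DMSO it was 0.27 with TPM at 24 h, and 0.28 at a minimum FPKM of 5 and 0.47 with a pseudocount of 0.1 at 48 h. The minimum FPKM of 5 leaves fewer of the genes in the median. Of the pathway genes, 17 of 85 passed 1.5-fold at 48 h, beside 18.7% of all genes tested, and 5 of 87 at 24 h, beside 11.6%. At 2-fold the counts were 3 and 1, beside 5.72% and 4.35%. With TPM 7 and with a pseudocount of 0.1 6 passed 2-fold at 48 h, and with that pseudocount 2 passed at 24 h. No share over all genes is given for the changed scalings or pseudocount. Counts under these settings, of the 10 genes as well, therefore have no background beside them. Genes with few reads, such as INSIG1, ME1 and THRSP, could not be compared, and why their reads were so few was not tested.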
